A study of Brassica napus with 6 samples.

Results

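A set of 96 array probe sets had signals that lay close together in 3 root samples of oilseed rape given cadmium and reduced glutathione (GSH) and spread widely in 3 given cadmium alone. A probe set entered when its range, the highest minus the lowest value, was under 0.3 on the log2 scale over the Cd plus GSH arrays and 0.5 or more over the Cd only arrays. The 96 made up 3.95% of the 2428 probe sets that varied between arrays and 0.422% of all 22746, control probe sets aside. The ranges chose the set, so they are given as a description and are not tested.

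The Cd plus GSH plants stood for 2 days in hydroponic solution with 10 µM CdCl2 and GSH, whose labelled concentration of 100 mM is high for roots and could not be checked here. The Cd only plants had the same cadmium for the same time and no GSH. Both groups were roots of Brassica napus cultivar Nourin No.16, with 3 biological replicates and 1 array each, and no group without cadmium was analysed here. The age is 4 weeks in one label and 2 to 3 weeks in the growth protocol, and the sources used here do not say whether a replicate was 1 plant or several.

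GSH is the thiol from which plants build phytochelatins, the peptides that bind cadmium in the cell. Roots exposed to cadmium are known for oxidative stress, for calcium and defence signalling that can follow wounding or touch as well as metals, and for shifts in primary metabolism. When sugar runs short, plant cells break down proteins and branched-chain amino acids, and growing cells by contrast make large amounts of ribosomal protein. The array carried Arabidopsis thaliana probes, so each gene named is the Arabidopsis gene of the probe set, and the roles given are those known in Arabidopsis. Values are log2 signals, and levels of different probe sets cannot be ranked against each other.

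In the annotation 31 of the 96 probe sets had exactly 1 gene, 9 had several and 56 had none. A gene is named only in the first case, and the other members are given by their probe-set identifier. All 31 named genes are described. Mean signals of the 96 ran from 5.76 to 11.2 with a median of 6.99, against a median of 6.26 for the 2332 varying probe sets outside the set. The mean lay above the highest bacterial control probe set (6.05), taken here as the background level, for 93 of the 96 (96.9%), and for 69.8% of the others. BGLU27, AT1G32920 and the unnamed 251281_at were the 3 at or below it.

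The GSH ranges of the set ran from 0.004 to 0.29 with a median of 0.16, and its Cd only ranges from 0.50 to 2.09 with a median of 0.71. Over the whole table a range of 0.5 or more was found in 42 probe sets among the GSH arrays and in 162 among the Cd only arrays. With the groups exchanged in the rule, 9 probe sets varied with GSH and were steady with cadmium alone, against the 96 that did the opposite. Of those 9, 3 had a single gene name: AT1G26240, AT1G73600 and AT2G43610.

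The size of the set rested on Cd only replicate 1. Without that array 23 probe sets met the rule, against 72 without replicate 2 and 62 without replicate 3, and the exchanged rule then gave 29. A range over 2 arrays is smaller than one over 3, so 1 array was also left out of each group. With Cd only replicate 1 left out in this way, 30 to 36 probe sets met the rule and 7 to 24 met the exchanged rule. With replicate 2 or 3 left out there were 82 to 99, and 2 to 13 by the exchanged rule.

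**Figure D1:**
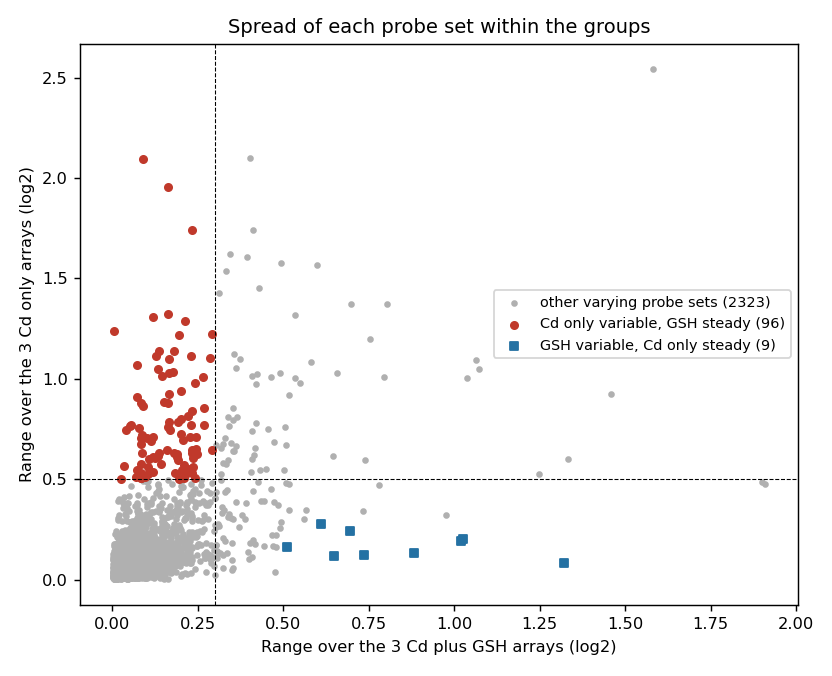
Range over the 3 Cd plus GSH arrays (x axis, log2) against the range over the 3 Cd only arrays (y axis, log2) for the 2428 varying probe sets, each a point. Dashed lines mark the limits of 0.3 and 0.5; the 96 red points fill the upper left, and the 9 blue squares meet the rule with the groups exchanged.

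Around the limits the ranges ran on without a gap. Just inside the Cd only limit was AT1G16810 with a range of 0.504, beside probe sets without a single gene name at 0.502 and 0.503. Just outside it were AT4G39200 with 0.498 and AT5G47700 with 0.494, both ribosomal protein genes, and an unnamed probe set with 0.492. At the GSH limit the nearest inside had ranges of 0.291, 0.291 and 0.284, and the nearest outside 0.302, 0.313 and 0.318, none of them named.

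Each member was placed by the Cd only array that stood apart, meaning that the larger of the 2 gaps between the sorted values was at least 2 times the smaller. Replicate 1 stood apart in 52 of the 96, high in 41 and low in 11. Replicate 2 stood apart in 8, high in 6 and low in 2, and replicate 3 in 8, high in 2 and low in 6. The other 28 were spread evenly. Over the 41 the median signals were 6.39, 6.51 and 6.45 with GSH, against 7.44, 6.53 and 6.52 with cadmium alone. Over the 11 they were 7.57, 7.66 and 7.66 with GSH, against 7.29, 8.13 and 8.10 with cadmium alone. The medians of the Cd only pair were thus close to those of the GSH arrays in the 41. Of the 11, the GSH mean lay between replicate 1 and the pair in 5, above the pair in 5 and below replicate 1 in 1. Among the 68 with an array apart, replicate 1 was the one in 76.5%, against 33.0% of the 1510 such probe sets that varied outside the set. It was 68.1% among the 47 that had an equally wide Cd only range and missed the set through their GSH range, so a large share for replicate 1 was not particular to the 96.

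Over all varying probe sets the GSH arrays correlated with each other at 0.982 to 0.990. Cd only replicate 1 correlated with replicates 2 and 3 at 0.957 and 0.951, against 0.979 between those 2. The array weights fitted by limma, lower for an array that departs more from its group, marked replicate 3 as well. They were 0.69, 1.36 and 0.58 for Cd only replicates 1, 2 and 3, and 1.46, 1.17 and 1.07 for the GSH arrays. The control probe sets did not single out replicate 1. Of 25 varying controls, 12 had Cd only replicate 3 apart, 4 replicate 2, 2 replicate 1, and 7 were evenly spread. No wide Cd only range was required of them, and the smallest was 0.005. Over all 1578 varying probe sets with an array apart, replicate 3 was the one in 38.3%. What the control counts say about any array was not tested. One control met the rule, the 3' set of the spiked-in cre transcript, at 12.12, 11.97 and 11.90 with GSH and 11.81, 12.26 and 11.53 with cadmium alone. The 3' minus 5' actin signal, a measure of how far labelled RNA reaches along a transcript, was 1.51, 1.48 and 1.37 on the GSH arrays and 1.29, 1.25 and 1.19 on the Cd only arrays. It was lower on every Cd only array, and replicate 1 was the nearest of them to the GSH arrays; its part in the results was not tested. Medians over the varying probe sets lay between 6.26 and 6.29 on all 6 arrays. Of the tissue markers, the root hair gene EXPA18 stood at 6.69, 6.70 and 6.63 with GSH and 6.56, 6.57 and 6.78 with cadmium alone, while EXPA7 (6.50) and the green-tissue genes RCA (6.04) and LHCB4.1 (6.07) held a single value. RCA was not above background and LHCB4.1 was barely above it. Markers of dividing, endodermal and vascular cells had no match, so their part was not tested. In bulk roots, fewer cells of a type and less RNA per cell cannot be told apart.

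**Figure D2:**
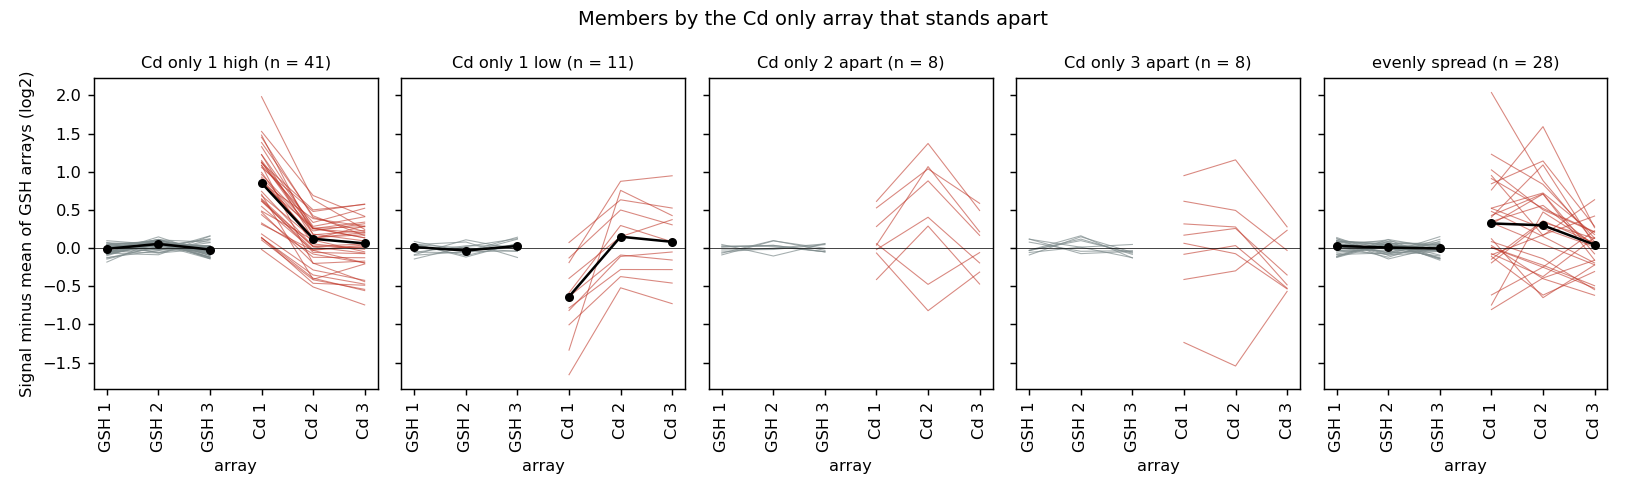
Signal minus the mean of the 3 Cd plus GSH arrays (y axis, log2) on each array (x axis), in 5 panels by the Cd only array apart. Thin lines are members, black points are medians where all members of a panel share a direction or none stands apart, and lines imply no order of replicates; 41 members are high at Cd only replicate 1 and 11 are low there.

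The difference between the group means was not used to choose the set, although the spreads that enter its error were. In limma, adjusted with Benjamini-Hochberg over all 2428 varying probe sets, 0 of the 96 and 0 of all 2428 (0%) had an adjusted p under 0.05; the smallest among the 96 was 0.219. At an unadjusted p under 0.05 limma gave 23 of the 96 (24.0%), against 12.9% of all varying probe sets. Of the 23, 5 were higher with GSH (background 6.18%) and 18 lower (background 6.67%). Leaving out 1 array moved the 23 widely, to 48 without Cd only replicate 1 and 36 without Cd only replicate 3, where 13.6% and 13.9% of all varying probe sets passed. It was 6 to 9 without a GSH array, where 8.57% to 10.5% of all passed. The members were chosen for a wide Cd only spread, and leaving out an outlying Cd only array removes much of it. The rise without such an array thus follows at least in part from the choice of the members.

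The groups did not overlap in 37 of the 96 (38.5%), against 18.7% of all varying probe sets. The 66 probe sets outside the set with an equally wide Cd only range came close to the 96 in both counts, with 31.8% not overlapping and 22.7% at an unadjusted p under 0.05, and the differences between these shares were not tested. Of the 37 members that did not overlap, 7 were higher with GSH (background 8.9%) and 30 lower (background 9.84%). Among the 66 the counts were 8 higher and 13 lower. All differences below are Cd plus GSH minus Cd only. Their median was -0.20 over the 96 and -0.0007 over all varying probe sets, with 31 members higher and 65 lower in the GSH mean. In the 41 with Cd only replicate 1 high the median was -0.34, and without that array it was -0.094, with 26 of the 41 lower.

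The GSH level can be set against the Cd only array apart and the other pair. In 54 of the 68 (79.4%) the mean of the GSH arrays lay nearer to the pair than to the array apart, against 60.1% of varying probe sets outside the set and 72.3% of those with an equally wide Cd only range. In 39 of the 68 it lay beyond the pair, on the side away from the array apart, in 25 between them and in 4 beyond the array apart. In the class with Cd only replicate 1 high, 35 of 41 lay nearer to the pair. The other 6 lay nearer to replicate 1, and the 2 named among them were a ribosomal protein gene and an enzyme of branched-chain amino acid synthesis.

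**Figure D3:**
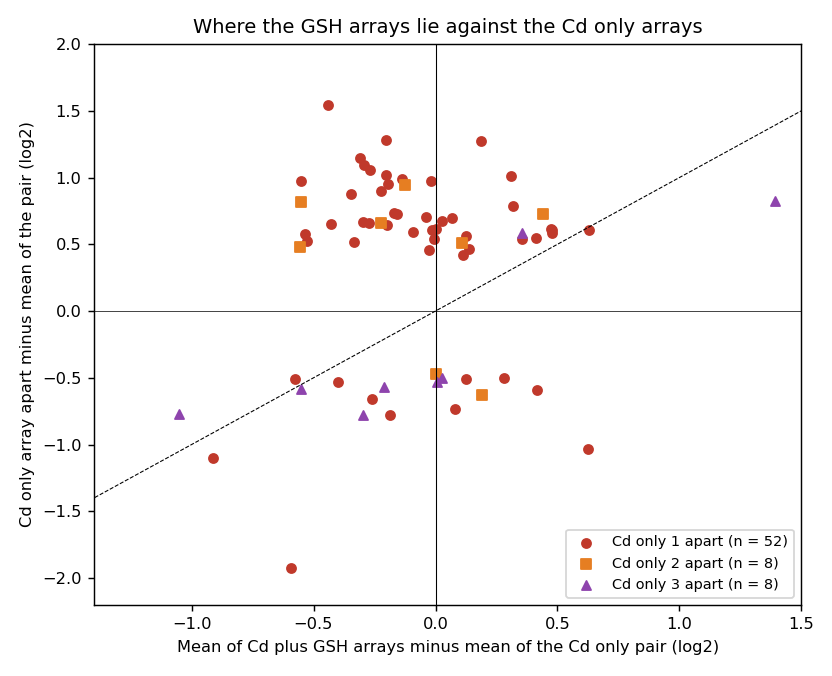
Mean of the Cd plus GSH arrays minus the mean of the Cd only pair (x axis, log2) against the Cd only array apart minus the pair (y axis, log2), for 68 members. The vertical line is GSH equal to the pair and the dashed diagonal is GSH equal to the array apart; 54 members lie nearer to the vertical line, and colours and shapes give the array apart.

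The named genes are described by function, in groups formed after their values were seen, so no test is given for a group. Calcium, signalling and defence genes made up 5 of the 31. Cd only replicate 1 was the highest Cd only array for all 5, and all 5 GSH means were below the Cd only mean. Both were common in the set. Replicate 1 was the highest in 20 of the 31 named genes and 60 of the 96. The GSH mean was lower in 22 of the 31 and 65 of the 96.

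PUB23 encodes a U-box ubiquitin ligase that restrains immune responses and acts in drought. It stood at 6.506, 6.510 and 6.511 in roots with GSH, against 7.96, 6.91 and 6.72 with cadmium alone. The GSH values spanned 0.004, the narrowest range of the set. That is under the 0.01 by which a probe set counted as constant, as 89.3% did over all arrays. The reason for such flat values was not tested. Every GSH value lay below every Cd only value, and replicate 1 was more than 1 unit above the other pair. The difference was -0.69 (SE 0.33, limma adjusted p 0.475), and -0.31 without Cd only replicate 1.

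CML38, a calmodulin-like calcium sensor known to respond to wounding and low oxygen, stood at 5.86, 6.00 and 5.97 with GSH, against 7.09, 6.20 and 6.08 with cadmium alone. Every GSH value was below the Cd only pair, and Cd only replicate 1 was far above both. With GSH the signal was not above background, so the level there has only an upper bound. No size is therefore given for the difference. AT1G76640, its neighbour in the Arabidopsis genome and also a calmodulin-like gene, stood at 6.00, 6.05 and 5.97 with GSH, against 6.55, 5.98 and 6.05 with cadmium alone. Cd only replicate 1 was the one array clear of background for it.

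AT2G26190, a calmodulin-binding protein, stood at 6.37, 6.44 and 6.42 with GSH, against 7.73, 6.66 and 6.69 with cadmium alone. B120, a lectin receptor kinase, stood at 5.89, 5.94 and 5.71 with GSH, against 6.69, 6.11 and 5.98 with cadmium alone. For both, no values of the groups overlapped and replicate 1 was the highest Cd only array. B120 was not above background on any GSH array or on Cd only replicate 3, so no size is given for its difference. Its step from 5.94 with GSH to 5.98 with cadmium alone lay below background and shows no separation. The difference of AT2G26190 was -0.62 (SE 0.31), and -0.27 without replicate 1. The limma adjusted p over the 5 genes ran from 0.475 to 0.700.

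A list of touch, wounding and early defence genes had 4 of 14 members matched. Of these 3 varied, CML38 was in the set, and 0 passed in either direction after adjustment in limma, with 1 of the 3 at an unadjusted p under 0.05 (background 12.9%). This list, like the others, was chosen with earlier results of these data known. The median difference of the 3 was -0.39. WRKY6, a transcription factor of defence and ageing, stood at 6.29, 6.43 and 6.32 with GSH, against 6.95, 6.67 and 6.58 with cadmium alone. STZ, a zinc-finger repressor induced by many stresses, stood at 6.03, 6.07 and 6.07 with GSH, against 6.31, 5.95 and 6.12 with cadmium alone. Cd only replicate 1 was the highest Cd only array for both, but with ranges of 0.37 and 0.36 they were outside the rule. WRKY53 held a single value of 6.02.

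Genes of the cell wall and of growth made up another 5. CSLC04, a synthase of the xyloglucan backbone, had the widest spread of them. It stood at 6.62, 6.74 and 6.53 with GSH, against 7.71, 6.43 and 6.46 with cadmium alone. The GSH arrays lay just above the Cd only pair, so the difference of -0.24 became 0.19 without Cd only replicate 1. EXLA2, an expansin-like protein, stood at 6.23, 6.30 and 6.18 with GSH, against 6.88, 6.25 and 6.17 with cadmium alone. Its difference of -0.20 became 0.026 without the same array.

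ARL, an ARGOS-like regulator of organ size, differed from these. It stood at 6.74, 6.88 and 6.84 with GSH, against 7.87, 7.30 and 7.40 with cadmium alone. Every GSH value lay below the Cd only pair as well as below replicate 1. The difference was -0.70 (SE 0.16, limma 95% interval from -1.11 to -0.30, adjusted p 0.228), and -0.53 without replicate 1.

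BGLU27, of the beta-glucosidase family, stood at 5.85, 5.85 and 5.80 with GSH, against 6.74, 5.97 and 6.04 with cadmium alone. It was above background on Cd only replicate 1 and on no other array. AT5G06630, an extensin-like protein, stood at 6.99, 7.06 and 7.08 with GSH, against 6.97, 6.67 and 7.18 with cadmium alone. Its Cd only values surrounded the GSH values, and its difference of 0.10 became -0.032 without Cd only replicate 2 and 0.22 without replicate 3. This probe set is of a type that can bind related transcripts, so its identity is uncertain.

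Genes of amino acid breakdown and of carbon shortage formed a group of 5 with another order of arrays. In all 5, Cd only replicate 2 was the highest, replicate 1 was in the middle and replicate 3 the lowest, and the GSH means lay below the Cd only means. This order of the Cd only arrays was not particular to the group, as ndhC and AT4G02720, described below, shared it. MCCA is a subunit of methylcrotonyl-CoA carboxylase, an enzyme of leucine breakdown. It stood at 6.46, 6.30 and 6.41 with GSH, against 7.15, 7.98 and 6.66 with cadmium alone. The groups did not overlap, and the gap between Cd only replicates 2 and 3 was 1.32. The difference was -0.87 (SE 0.34, limma adjusted p 0.384), and -0.51 without replicate 2.

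IVD, isovaleryl-CoA dehydrogenase of the same pathway, stood at 6.96, 6.95 and 7.04 with GSH, against 7.30, 7.69 and 6.83 with cadmium alone. Replicate 3 lay below the GSH arrays and the other pair above them. The difference was -0.29 (SE 0.22, limma adjusted p 0.656), and ran from -0.51 without replicate 3 to -0.077 without replicate 2. PPDK, pyruvate orthophosphate dikinase, which interconverts pyruvate and phosphoenolpyruvate, stood at 6.05, 6.15 and 6.18 with GSH, against 6.53, 7.22 and 6.17 with cadmium alone. Replicate 3 lay among the GSH values, and without replicate 2 the difference of -0.51 was -0.22.

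AT3G15450, of the aluminium-induced protein family and a known marker of low sugar, stood at 7.18, 7.31 and 7.15 with GSH, against 8.16, 8.37 and 7.49 with cadmium alone. AT3G19390, a cysteine protease with a granulin repeat, stood at 7.68, 7.41 and 7.57 with GSH, against 8.40, 8.69 and 7.84 with cadmium alone. For both, replicate 3 came nearest to the GSH arrays while staying above them. Their differences were -0.79 (SE 0.23, limma adjusted p 0.296) and -0.76 (SE 0.23, limma adjusted p 0.307). Without Cd only replicate 3, AT3G15450 was at -1.05 with an adjusted p of 0.0485, one of 2 members among 13 calls over the 2428 varying probe sets there. The other was 254820_s_at, which has several genes in the annotation. In both, replicate 3 was the Cd only array apart and the nearest to the GSH arrays. Leaving it out therefore widens the difference and narrows the spread by construction.

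The starvation and darkness list had 8 of 21 members matched, 6 varying and 3 in the set, MCCA, IVD and AT3G15450. With adjustment in limma 0 passed in either direction, and 4 of the 6 had an unadjusted p under 0.05 (background 12.9%). The list was chosen with earlier results of these data known, so this share is a description and no independent support. The median difference of the 6 was -0.76. The median deviations from the Cd only mean were -0.05 for replicate 1, 0.34 for replicate 2 and -0.30 for replicate 3. MCCB, the partner subunit of MCCA, kept the order of the Cd only arrays at a small scale. It stood at 7.14, 7.13 and 7.16 with GSH, against 7.20, 7.23 and 7.12 with cadmium alone, a Cd only range of 0.11. AILP1 did not share the order, at 7.76, 8.15 and 8.09 with GSH, against 8.60, 8.67 and 8.91 with cadmium alone, with replicate 3 highest. AT4G27450 had its wide range among the GSH arrays, at 7.39, 9.06 and 9.30, against 10.30, 10.78 and 10.31 with cadmium alone. AKINBETA1 and ATL8 held single values. The abscisic acid and dehydration list had 3 of 12 matched, 1 varying and 0 in the set, and COR47 and COR15A held single values. The varying gene, the stress aldehyde dehydrogenase ALDH7B4, also had replicate 2 highest. It stood at 6.41, 6.68 and 7.01 with GSH, against 7.29, 8.86 and 7.80 with cadmium alone, and missed the rule by its GSH range of 0.60. The list of sulfur, glutathione and metal-binding genes had 2 of 16 matched, both varying and 0 in the set, and the members of the lists in the set were 4 in all.

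**Figure D4:**
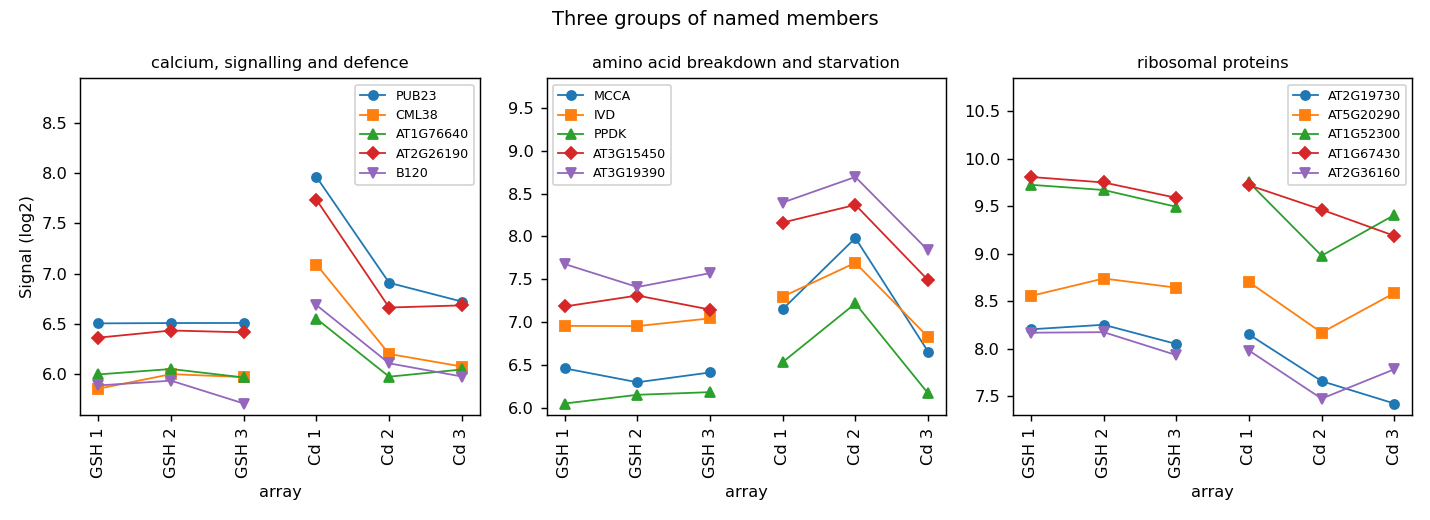
Log2 signal (y axis) on each array (x axis, Cd plus GSH left, Cd only right) for the calcium, signalling and defence genes, the amino acid breakdown and starvation genes, and the ribosomal protein genes, 5 in each panel. Lines join the values of a gene and imply no order; Cd only replicate 1 is highest of the Cd only arrays for the calcium and ribosomal genes and replicate 2 for the amino acid breakdown genes.

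Ribosomal protein genes made up 5 more. Cd only replicate 1 was again the highest Cd only array in all 5, but here it lay within the GSH range or within 0.05 of it. All 5 GSH means were above the Cd only means, by 0.16 to 0.42. None of the 5 had an unadjusted p under 0.05, and the limma adjusted p ran from 0.421 to 0.726.

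AT2G19730, of the large subunit, stood at 8.21, 8.25 and 8.05 with GSH, against 8.15, 7.66 and 7.43 with cadmium alone. Replicate 1 lay inside the GSH range and the other pair below it. The difference was 0.42 (SE 0.19), and ran from 0.26 without replicate 3 to 0.63 without replicate 1. AT1G67430, also of the large subunit, stood at 9.81, 9.75 and 9.59 with GSH, against 9.72, 9.47 and 9.19 with cadmium alone. Replicate 1 again lay among the GSH values, with replicate 3 the lowest, and the difference of 0.26 (SE 0.15) ran from 0.12 without replicate 3 to 0.39 without replicate 1.

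For the other ribosomal genes replicate 2 was the lowest. AT1G52300, of the large subunit, stood at 9.73, 9.67 and 9.50 with GSH, against 9.75, 8.98 and 9.41 with cadmium alone. AT2G36160, of the small subunit, stood at 8.17, 8.18 and 7.94 with GSH, against 7.98, 7.48 and 7.79 with cadmium alone. AT5G20290, also of the small subunit, stood at 8.56, 8.74 and 8.65 with GSH, against 8.70, 8.17 and 8.59 with cadmium alone. In this last gene replicate 2 was the one Cd only array below all GSH arrays by a clear margin, and the difference of 0.16 was 0.002 without it and 0.27 without replicate 1. The differences of AT1G52300 and AT2G36160 were 0.25 (SE 0.20) and 0.35 (SE 0.15), and 0.051 and 0.21 without replicate 2. Without replicate 1 that of AT1G52300 was 0.44.

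**Figure D5:**
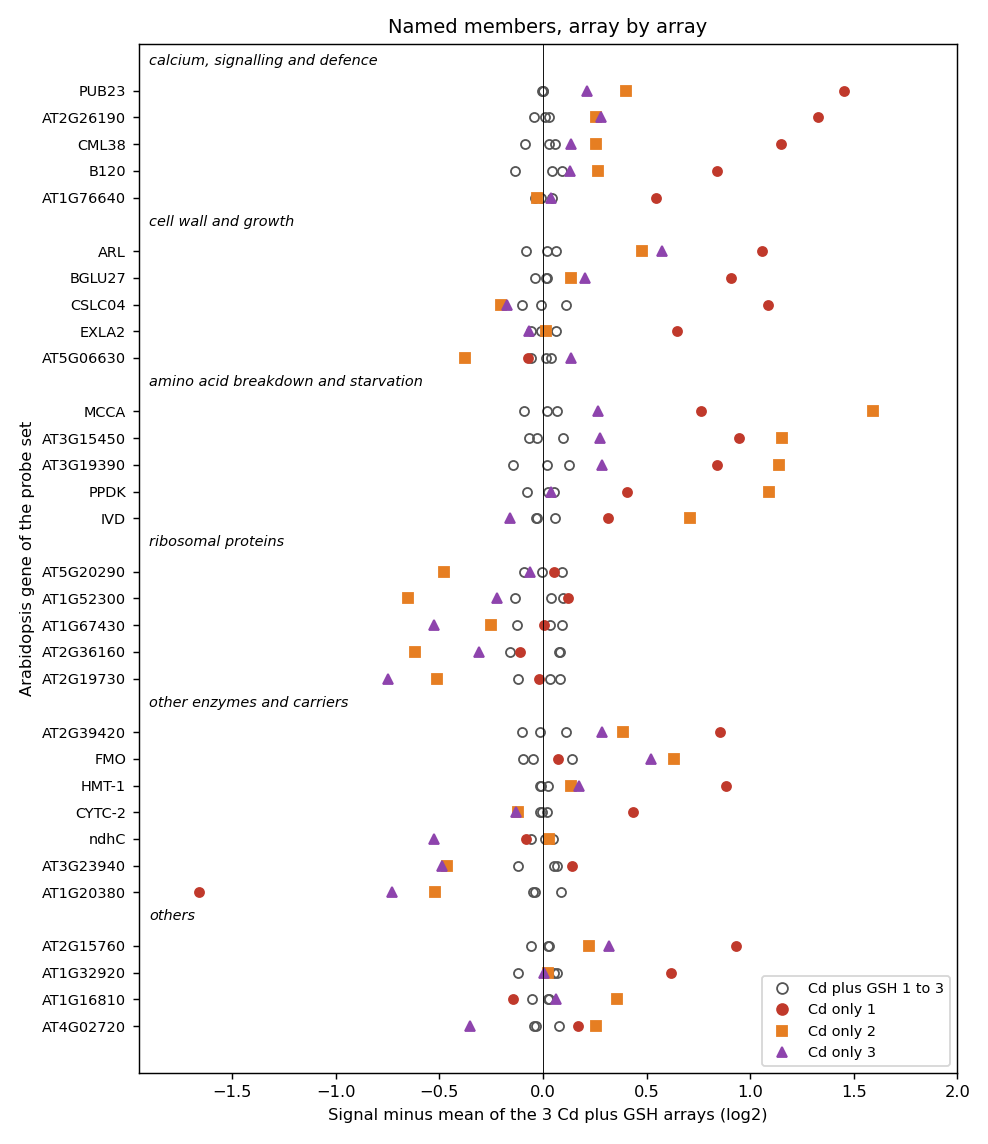
Signal minus the mean of the 3 Cd plus GSH arrays (x axis, log2) for the 31 named genes (y axis), grouped by function. Open circles are the GSH arrays and filled symbols Cd only replicates 1, 2 and 3; replicate 1 lies far right for the calcium genes, replicate 2 for the amino acid breakdown genes, and replicate 1 sits among the GSH arrays for the ribosomal genes.

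Enzymes and electron carriers made up 7. AT1G20380, a prolyl oligopeptidase, stood at 9.04, 8.90 and 8.92 with GSH, against 7.29, 8.43 and 8.22 with cadmium alone. It was the one named gene above all Cd only values on every GSH array, and its Cd only replicate 1 was low. The difference was 0.97 (SE 0.31, limma 95% interval from 0.20 to 1.74, adjusted p 0.311), and 0.62 without that array. FMO, a flavin-containing monooxygenase, stood at 6.50, 6.55 and 6.74 with GSH, against 6.67, 7.23 and 7.12 with cadmium alone. Here the low replicate 1 lay among the GSH values, and the difference was -0.41 (SE 0.16, limma adjusted p 0.388).

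HMT-1, a homocysteine methyltransferase that makes methionine, stood at 6.69, 6.65 and 6.65 with GSH, against 7.55, 6.80 and 6.84 with cadmium alone. AT2G39420, of the alpha/beta hydrolase family, stood at 6.70, 6.82 and 6.61 with GSH, against 7.57, 7.10 and 6.997 with cadmium alone. In both, all GSH values were below all Cd only values and replicate 1 was the highest. Their differences were -0.40 (SE 0.21) and -0.51 (SE 0.16), and -0.16 and -0.33 without replicate 1.

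CYTC-2, a cytochrome c of the respiratory chain, stood at 6.67, 6.64 and 6.65 with GSH, against 7.09, 6.53 and 6.52 with cadmium alone. The GSH arrays lay above the Cd only pair, so its difference of -0.063 became 0.12 without replicate 1. AT3G23940, a dehydratase of branched-chain amino acid synthesis, resembled the ribosomal gene AT2G19730 in its order of arrays, at 7.43, 7.41 and 7.24 with GSH, against 7.50, 6.89 and 6.87 with cadmium alone. The chloroplast gene ndhC, for a subunit of the NADH dehydrogenase-like complex, stood at 7.35, 7.42 and 7.45 with GSH, against 7.32, 7.44 and 6.88 with cadmium alone. Its replicate 3 was low, and the difference of 0.19 was 0.025 without that array and 0.30 without replicate 2.

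The other 4 named genes are given without a role. AT2G15760 stood at 6.63, 6.55 and 6.63 with GSH, against 7.53, 6.83 and 6.92 with cadmium alone, and AT1G32920 at 5.96, 5.98 and 5.79, against 6.53, 5.93 and 5.91. Both had replicate 1 high, and AT1G32920 was above background on that array and no other. AT4G02720 stood at 6.53, 6.41 and 6.42 with GSH, against 6.62, 6.71 and 6.10 with cadmium alone, with replicate 3 low. AT1G16810 stood at 7.86, 7.78 and 7.86 with GSH, against 7.68, 8.19 and 7.90 with cadmium alone. The differences of AT4G02720 and AT1G16810, -0.024 and -0.092, became 0.092 and 0.041 without Cd only replicate 2, and that of AT4G02720 became 0.048 without replicate 1.

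The 3 widest Cd only ranges belonged to probe sets without a single gene name. The widest, 267461_at, stood at 7.57, 7.53 and 7.48 with GSH, against 6.19, 8.28 and 7.95 with cadmium alone, so its GSH values lay between a low replicate 1 and the other pair. The set with several genes 254053_s_at stood at 5.67, 5.51 and 5.53 with GSH, against 7.61, 6.45 and 5.65 with cadmium alone. Its Cd only replicate 3 lay among the GSH values, and all 4 were below background, so no size is given for its difference. The unnamed 267028_at stood at 6.63, 6.72 and 6.49 with GSH, against 8.60, 7.25 and 6.86 with cadmium alone. The largest positive difference, 1.12, belonged to 254820_s_at, at 7.68, 7.57 and 7.43 with GSH, against 6.32, 6.01 and 6.99 with cadmium alone, with replicate 3 the nearest to the GSH arrays.

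The even class held orders seen among the named genes, 9 of which belong to it. Of its 28 probe sets, 11 had replicate 1 highest and replicate 3 lowest, and 7 had replicate 2 highest and replicate 3 lowest. All 7 with replicate 2 highest and replicate 3 lowest had lower GSH means, with a median difference of -0.47, and 4 of the 7 were the named genes MCCA, PPDK, IVD and AT3G19390. Of the 11, 4 were higher and 7 lower with GSH.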

How the data were processed

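Roots of 6 samples were measured on 1 Arabidopsis ATH1 array each, 3 Cd plus GSH and 3 Cd only, grouped by the sample titles. The authors deposited log2 signals, 1 for each probe set on each array; the base is read from their range and is not stated. Per the submitters' processing notes R 2.7.2 was used; background correction, normalisation and probe-set summary are not given in the sources used here, nor are slides or scan times, so no batch was tested. The number of arrays limits the precision.

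From the deposited values 64 control probe sets were set aside. Of the other 22746, 20318 (89.3%) ranged by no more than 0.01 and were left out of the fit of the remaining 2428. Differences came from limma 3.58.1 in R 4.3.3 (lmFit, eBayes, Benjamini-Hochberg, threshold 0.05). The same fit was run on simulated data that had equal spread in both groups. The members had a median standard deviation of 0.383 with cadmium alone and 0.088 with GSH, so that run does not check the fit for them. All members with exactly 1 annotated gene are named. Bacterial controls (27 sets, means 5.44 to 6.05) gave the background. The 17 gene lists held 168 genes; 25 matched by symbol or locus, 15 varied and 4 were members. Lists were described by counts, not tested. The members and lists were chosen with earlier results of these data known. With 3 arrays against 3 an exact permutation p cannot be under 0.1.

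Alternatives were quantile normalisation, equal array medians, an intensity trend with robust eBayes, array weights, the replicate number as a block, all probe sets, bright probe sets, 1 probe set per gene, other limits on ranges and gaps, and leaving out arrays. Sequences of probes and promoters were not used here.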

Additional observations from a re-analysis of the deposited data

How the results depend on the processing

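Among the 96 probe sets 0 limma calls held under all alternatives run except without Cd only replicate 3 (range 0 to 2 on leaving out 1 array). In the 2 called there, that array was the one apart and nearest to the GSH arrays. Over all varying probe sets the 0 calls became 42 with all probe sets fitted, 3 with quantile normalisation, 4 with array weights and 0 to 13 without 1 array. The fit that gave 42 included the 20318 constant probe sets. They were left out of the main fit because they would set the variance that limma shares between probe sets to rounding size. The size of the set was 31 with 1 probe set per gene, fewer because only named probe sets enter, and 23 to 131 on leaving out arrays; the exchanged rule gave 3, 2 to 29, and 22 or 14 with limits of 0.4 on the variable or the steady group. Replicate 3 stood apart in 13 with gaps of 1.5 times. Members at an unadjusted p under 0.05 (23; 5 higher, 18 lower) were 12 (3 and 9) with all probe sets and 6 to 48 (1 to 22 and 5 to 29) without 1 array; array weights gave 8 higher. The rise without an outlying Cd only array follows at least in part from how the members were chosen. Groups did not overlap in 42 to 64 members without 1 Cd only array, where 29.4% to 31.1% of all varying probe sets did not. Fewer arrays make separation easier for any probe set. The member count of 37 became 64 without Cd only replicate 1, 42 without replicate 2 and 52 without replicate 3. The background of 18.7% became 30.2%, 29.4% and 31.1%. The rise among the members thus varied with the array left out, and its cause was not tested. Of 31 named differences 6 changed sign without 1 array: CSLC04 ran from -0.46 to 0.19, EXLA2 from -0.33 to 0.026, CYTC-2 from -0.16 to 0.12, AT4G02720 from -0.21 to 0.092, AT5G06630 from -0.032 to 0.22 and AT1G16810 from -0.21 to 0.041. Where no construction is given, the cause was not tested. With the replicate block 17 members had an unadjusted p under 0.05 and 0 were called. Same-numbered arrays deviated with correlations of -0.11, -0.21 and 0.13 across probe sets. With 3 arrays in a group these values cannot decide whether the numbers pair the arrays. For the size of the set, leaving out arrays was added after seeing the data, as were the counts by direction. Signals near 6.05 limit what the low ends show.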
